A study of Homo sapiens with 8 samples.

Results

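The 46 nuclear-encoded subunits of respiratory complexes II to V, cytochrome c included, were examined among 17912 genes of NKM-1 cells. A gene was taken where the authors' files class it as protein-coding and its symbol is SDHA, SDHB, SDHC or SDHD, begins with UQCR, COX4 to COX8 or ATP5 (ATP5F, ATP5M, ATP5P or ATP5IF), or is CYC1 or CYCS. The rule used names only and no measured value. It gave 4 genes of complex II, 11 of complex III with cytochrome c, 11 of complex IV and 20 of complex V. Of these, 3 are not separate subunits of the human enzymes: UQCRHL is an intronless copy of UQCRH, ATP5MGL is a copy of ATP5MG, and ATP5MF-PTCD1 is a readthrough of ATP5MF into the gene next to it.

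NKM-1 is an established human myeloid leukaemia line, labelled as wildtype in all samples. Cells received 30 uM SF153 or its solvent DMSO for 48 h, and total RNA depleted of ribosomal RNA was sequenced from 4 libraries of each treatment. SF153 is described by the series title as an inhibitor of splicing factors that carry a U2AF homology motif. Each treatment had libraries 1.1 and 1.2 in batch 1 and libraries 2.1 and 2.2 in batch 2, and strings of 4 values below follow that order. The labels do not say whether the libraries of one treatment and batch came from separate cultures, so the p-values below reflect the spread among libraries alone, part or all of which may be technical.

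The complexes sit in the inner mitochondrial membrane. Complex II (succinate dehydrogenase) passes electrons from succinate to ubiquinone, complex III passes them from ubiquinol to the small soluble carrier cytochrome c, and complex IV passes them from cytochrome c to oxygen. Complexes III and IV pump protons, and complex V (ATP synthase) uses the proton gradient to make ATP. All subunits of complex II are encoded in the nucleus, whereas complexes III, IV and V also hold subunits encoded in mitochondrial DNA, so that products of both genomes must be assembled together.

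Gene values are the deposited signal, which the file labels name both CPM and TPM. It was taken as a length-scaled abundance of the TPM type with an unstated further scaling. Levels are set side by side between genes on that reading, which the labels do not settle, and the read depth is unknown. Mitochondrially encoded genes took 16.8% and 16.8% of all signal in SF153 batch 2 and 9.17% to 9.92% in the other 6, and RN7SK, a small nuclear RNA, held 18.7% and 18.2% in SF153 batch 1 and 11.4% to 13.9% in the others. The myeloid label was borne out by its markers: 10 of 11 were measured and all were expressed, with myeloperoxidase (MPO) at 469.6 in SF153 and 740.3 in DMSO. They moved in both directions by limma: 4 fell, MPO among them, and 2 rose, CD33 (log2 difference 0.40) and ITGAM (0.42). Of all genes tested, 24.3% were called lower and 13% higher. With mitochondrial and small RNA genes removed and the rest rescaled, 4 of these markers were lower and 5 higher. Of all genes, 13.8% were then called lower and 34.7% higher. The 2 T-cell markers measured of 5 summed to 1.78 to 6.0 in SF153 and 10.5 to 15.1 in DMSO. The 2 B-cell markers of 4 summed to 5.83 to 13.5 in SF153 and 25.9 to 32.4 in DMSO, and they parted. CD79A averaged 6.72 in SF153 and 27.1 in DMSO and was called lower, while PAX5 averaged 2.62 and 1.66 and was not called. The fibroblast marker PDGFRB, 1 of 4 measured, averaged 24.8 in SF153 and 28.5 in DMSO and was not called. The part of these markers in the results below was not tested.

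Cells treated with SF153 had less mRNA for nearly every nuclear-encoded subunit of complexes II to V. Summed over the 46 genes, the signal was 1837, 1787, 1148 and 1166 in the SF153 libraries, against 4782, 4702, 3964 and 4045 in the DMSO libraries. The sum averaged 1484 ± 379 in SF153 and 4373 ± 428 in DMSO (SD, n = 4 each), so that SF153 libraries held 33.9% of the DMSO level, and no SF153 library reached a DMSO library. All 46 genes passed the filter on low signal (a mean of at least 1 over the 8 libraries). By limma with Benjamini-Hochberg adjustment over all 15542 genes tested, 43 of the 46 fell and 0 rose, where 24.3% of all genes were called lower and 13% higher (adjusted p below 0.05). In bulk RNA, fewer cells of a type and less RNA per cell cannot be told apart.

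The log2 difference, SF153 minus DMSO on log2(signal + 1), had a median of -1.54 over the 46 genes, against -0.034 over all genes tested. Of the members, 38 were called with a mean signal at least 2-fold lower, which 8.89% of all genes were. In 43 members every SF153 library lay below every DMSO library, as in 23.6% of all genes. The 3 genes that were not called were the copies UQCRHL and ATP5MGL and the readthrough ATP5MF-PTCD1, so each of the 43 genes for a separate subunit, cytochrome c or the inhibitor was called lower. The depth of the fall ranged over these from -2.49 for UQCR10 to -0.21 for UQCRC2.

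**Figure D1:**
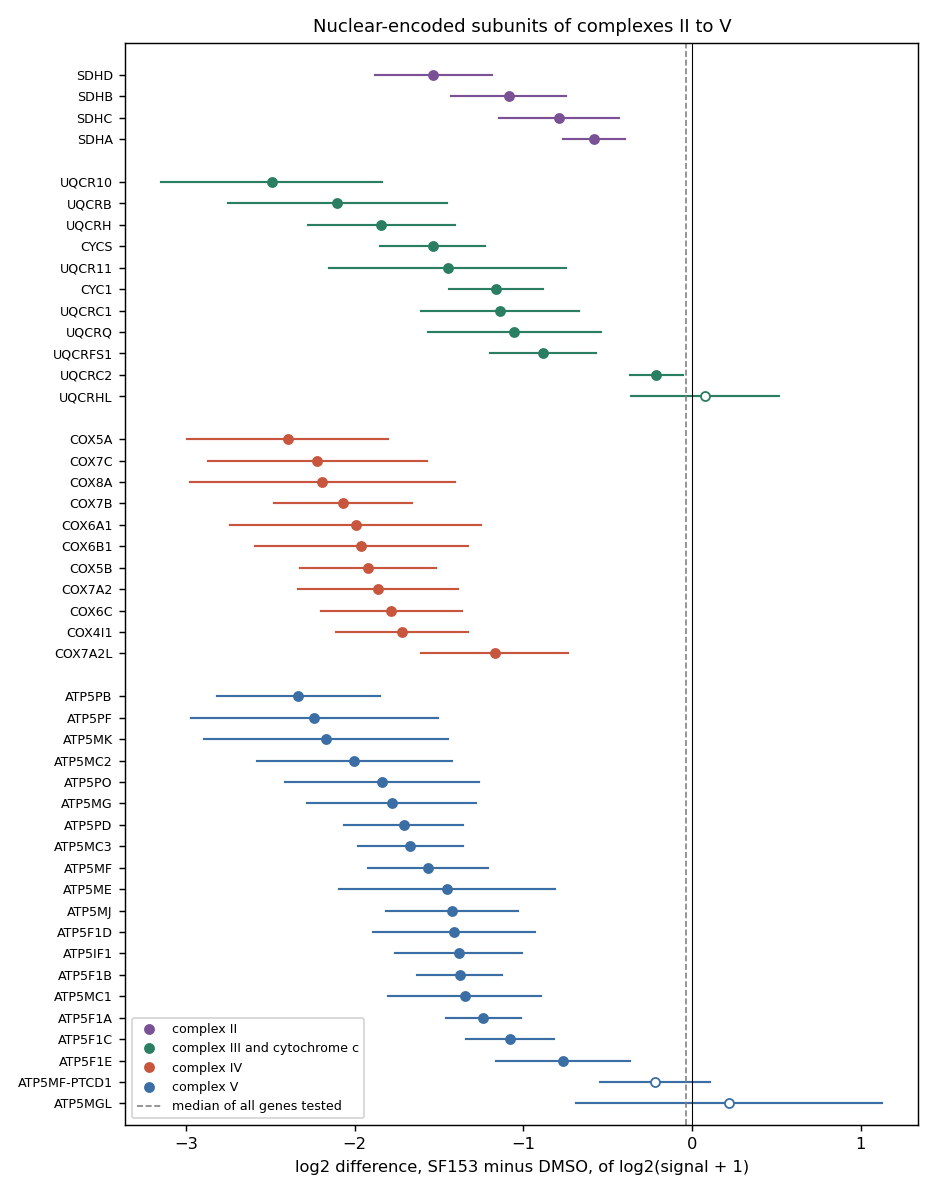
Log2 difference, SF153 minus DMSO, of each of the 46 genes (x axis), grouped by complex and sorted within it; bars are limma 95% confidence intervals, open circles are genes not called, and the dashed line is the median of all genes tested at -0.034. All filled circles lie left of 0, from -2.49 (UQCR10) to -0.21 (UQCRC2).

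The order of the complexes was IV, V, III and II, from the largest median difference to the smallest. Complex IV had all 11 genes lower with a median log2 difference of -1.96. Complex V had 18 of 20 lower (-1.44), complex III with cytochrome c 10 of 11 (-1.16) and complex II 4 of 4 (-0.94). These medians are descriptions, and the differences between complexes were not tested. The same order held for the summed signal: 27.0% of the DMSO level for complex IV, 33.5% for V, 42.5% for III with cytochrome c and 51.4% for II.

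**Figure D2:**
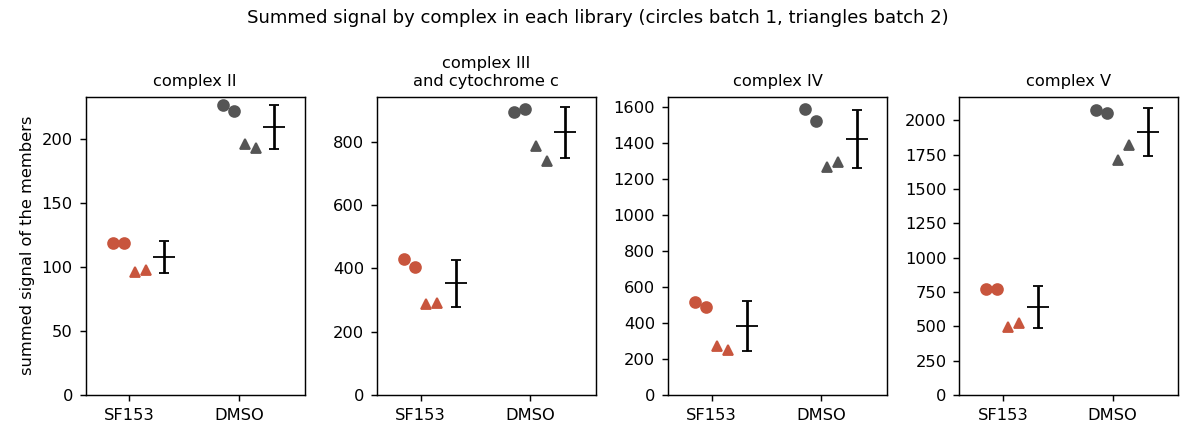
Summed signal of the members of each complex in each library (y axis, from 0), SF153 left and DMSO right; circles are batch 1, triangles batch 2, and the bar beside them is the mean ± SD of 4 libraries. In each of the 4 panels every SF153 library lies below every DMSO library, with complex IV at 27.0% and complex II at 51.4% of the DMSO mean.

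Because the members moved together, their promoters are shown for a few of them. NRF1 (nuclear respiratory factor 1), the ETS factor GABP and YY1 are textbook regulators of respiratory genes, and their core letters were searched on both strands of the RefSeq promoters (GRCh38.p14), each of 300 bases from 250 before to 50 after the start that RefSeq gives the gene. A promoter was matched for 35 of the 46 members. The gene positions given elsewhere are the outer bounds in GENCODE 29, whose start lay within 50 bases of RefSeq's in 14 of the 35 members and more than 250 bases from it in 10, and other starts of these genes were not searched. The NRF1 letters (GCGCA, any base, GCGC) were in 10 of the 35 member promoters (28.57%), against 14.37% of the promoters of 8981 protein-coding genes tested. The ETS letters CCGGAAG were in 16 (45.71%, against 24.32%), and the YY1 letters AAGATGGCG in 3 (8.57%, against 5.21%). At least 1 of the 3 was found in 23 promoters and none in 12. Large and small falls occurred on both sides: the log2 differences ran from -2.49 (UQCR10) to -0.58 (SDHA) with a match, with a median of -1.71, and from -2.40 (COX5A) to -0.21 (UQCRC2) without, with a median of -1.70. A match describes letters only, and its absence says nothing about the factor. The 5 below are printed 5′ to 3′ on the gene's strand, with matches in capitals. UQCR10 (chr22:29767119-29767418, plus strand) and SDHA (chr5:218070-218369, plus strand) hold the NRF1 letters. COX8A (chr11:63974370-63974669, plus strand) holds the ETS letters, read on the other strand, and ATP5PF (chr21:25735005-25735304, minus strand) those of YY1 and ETS. UQCRC2 (chr16:21953111-21953410, plus strand) is shown as one of the 12 with none. RefSeq's start lies 701 bases inside the GENCODE gene for UQCRC2 and 619 for ATP5PF, and 0 to 79 for the other 3.
UQCR10: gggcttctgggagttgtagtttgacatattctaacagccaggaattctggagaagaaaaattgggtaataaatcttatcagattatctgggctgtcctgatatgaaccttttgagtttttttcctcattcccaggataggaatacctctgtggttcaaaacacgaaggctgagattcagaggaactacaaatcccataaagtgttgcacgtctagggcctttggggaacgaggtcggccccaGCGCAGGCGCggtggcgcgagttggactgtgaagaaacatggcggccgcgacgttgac
COX8A: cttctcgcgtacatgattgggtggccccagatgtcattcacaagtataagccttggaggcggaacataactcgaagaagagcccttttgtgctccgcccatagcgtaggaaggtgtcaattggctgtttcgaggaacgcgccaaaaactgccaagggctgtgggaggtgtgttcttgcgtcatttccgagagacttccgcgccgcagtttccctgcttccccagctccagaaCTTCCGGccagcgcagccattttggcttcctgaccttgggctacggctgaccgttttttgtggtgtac
ATP5PF: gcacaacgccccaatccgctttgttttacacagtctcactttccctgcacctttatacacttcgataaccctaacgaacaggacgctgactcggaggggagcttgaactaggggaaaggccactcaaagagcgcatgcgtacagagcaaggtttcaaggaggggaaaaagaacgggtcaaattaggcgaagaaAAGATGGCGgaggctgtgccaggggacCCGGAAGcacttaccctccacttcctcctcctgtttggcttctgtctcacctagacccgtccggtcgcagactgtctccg
SDHA: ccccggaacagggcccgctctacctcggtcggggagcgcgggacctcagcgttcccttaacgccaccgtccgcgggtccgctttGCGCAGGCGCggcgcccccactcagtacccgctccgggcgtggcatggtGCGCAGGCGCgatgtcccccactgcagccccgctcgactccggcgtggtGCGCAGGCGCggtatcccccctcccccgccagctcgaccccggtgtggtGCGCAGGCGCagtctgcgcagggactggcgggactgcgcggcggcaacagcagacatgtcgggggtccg
UQCRC2: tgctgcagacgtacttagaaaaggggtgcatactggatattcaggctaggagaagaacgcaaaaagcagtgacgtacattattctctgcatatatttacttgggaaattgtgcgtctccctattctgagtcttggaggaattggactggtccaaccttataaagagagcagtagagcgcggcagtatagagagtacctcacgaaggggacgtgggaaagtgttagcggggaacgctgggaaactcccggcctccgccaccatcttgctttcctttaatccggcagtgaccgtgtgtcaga

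Complex II fell by the smallest median of the 4 complexes. Its 4 genes encode the flavoprotein with the succinate site (SDHA, chr5:218241-256700 on GRCh38), the iron-sulfur subunit (SDHB, chr1:17018722-17054170) and the membrane anchors that bind ubiquinone (SDHC, chr1:161314257-161375340, and SDHD, chr11:112086773-112120013). SDHD had a signal of 22.1, 26.6, 17.7 and 16.6 in the SF153 libraries, against 70.7, 66.5, 54.4 and 54.0 in the DMSO libraries. SDHB had 21.1, 22.2, 13.4 and 18.4 in the SF153 libraries, against 42.6, 41.7, 34.2 and 43.6 in the DMSO libraries. In both genes all SF153 libraries were below all DMSO libraries, and the log2 differences were -1.53 ± 0.15 SE, limma adjusted p = 8.98e-05 for SDHD and -1.09 ± 0.15 SE, limma adjusted p = 0.000494 for SDHB.

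SDHC had 23.9, 24.5, 23.6 and 15.6 in the SF153 libraries, against 42.5, 42.6, 37.1 and 30.8 in the DMSO libraries. Library SF153 2.2 lay apart from the other 3 SF153 libraries, and the groups did not overlap (-0.79 ± 0.16 SE, limma adjusted p = 0.00377). SDHA, the most abundant of the 4, had 51.4, 45.2, 41.1 and 47.1 in the SF153 libraries, against 71.0, 71.3, 70.4 and 65.0 in the DMSO libraries. Its log2 difference was -0.58 ± 0.081 SE, limma adjusted p = 0.000496, the smallest fall of the complex, and it took 38.1% to 48.2% of the complex II signal in SF153, against 31.3% to 35.9% in DMSO. The calls of SDHA and SDHC ended when values were rescaled over protein-coding nuclear genes alone (log2 differences -0.13 and -0.35, limma adjusted p = 0.178 and 0.0515), and SDHC was not called in batch 2 alone (limma adjusted p = 0.071).

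Complex III held both the largest and the smallest fall among the 43 subunit genes. UQCR10, a small subunit of the membrane part (chr22:29767369-29770413), had 9.29, 5.63, 2.93 and 2.82 in the SF153 libraries, against 32.9, 31.2, 34.4 and 25.5 in the DMSO libraries. All SF153 libraries were below all DMSO libraries, with a log2 difference of -2.49 ± 0.29 SE, limma adjusted p = 0.000182. UQCRB, which contributes to the ubiquinone-binding region, had 40.8, 39.2, 15.6 and 18.4 in the SF153 libraries, against 125, 133, 102 and 105 in the DMSO libraries. UQCRH, the acidic hinge protein that helps cytochrome c dock, had 76.1, 72.0, 48.5 and 38.8 in the SF153 libraries, against 221, 219, 195 and 189 in the DMSO libraries. In all 3 genes the SF153 libraries of batch 2 were lower than those of batch 1, and the log2 differences were -2.10 ± 0.29 SE, limma adjusted p = 0.000459 for UQCRB and -1.84 ± 0.19 SE, limma adjusted p = 0.000108 for UQCRH.

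Reads of UQCRH and its copy UQCRHL are hard to tell apart, since their coding sequences differ at 4 of 276 bases, and the values of both are uncertain. UQCRHL was near the filter, with 2.33, 2.81, 2.81 and 1.75 in the SF153 libraries, against 3.06, 2.07, 2.19 and 1.70 in the DMSO libraries. The groups overlapped and it was not called (0.077 ± 0.19 SE, limma adjusted p = 0.784). Both genes summed to 61.3 ± 18.3 in SF153 and 209 ± 16.8 in DMSO (SD, n = 4 each), 29.4% of the DMSO level.

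The catalytic electron carriers had smaller log2 differences than these 3 genes. CYC1, the haem-bearing cytochrome c1 that hands electrons to cytochrome c, had 47.4, 43.7, 36.1 and 36.1 in the SF153 libraries, against 106, 101, 80.5 and 82.1 in the DMSO libraries (-1.16 ± 0.12 SE, limma adjusted p = 0.000119). The Rieske iron-sulfur protein UQCRFS1 averaged 8.67 ± 1.57 in SF153 and 16.8 ± 1.93 in DMSO (log2 difference -0.88). UQCR11 and UQCRQ, further small subunits, fell with log2 differences of -1.45 and -1.05, but neither call held when libraries of one treatment and batch were averaged (limma adjusted p = 0.0507 and 0.0566).

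The core proteins of the matrix arm parted from each other. UQCRC1 (core protein 1) averaged 36.4 ± 11.1 in SF153 and 78.1 ± 4.61 in DMSO, a log2 difference of -1.14. UQCRC2 (core protein 2, chr16:21952660-21983660) had 115, 106, 106 and 100.4 in the SF153 libraries, against 129, 130.4, 119 and 117.04 in the DMSO libraries. The groups lay close together without overlapping (-0.21 ± 0.07 SE, limma adjusted p = 0.038). The call held in 7 of 25 alternative settings. Without SF153 1.2, SF153 2.1, SF153 2.2, DMSO 1.1, DMSO 1.2 or DMSO 2.1 it was lost (log2 differences -0.23 to -0.18, limma adjusted p = 0.0512 to 0.0977), and with mitochondrially encoded and small RNA genes left out it stood at 0.13 (limma adjusted p = 0.141). It was also lost with all libraries under median-of-ratios scaling, quantile normalization or no intensity trend, with libraries of one treatment and batch averaged, and in each batch alone (limma adjusted p = 0.0861 to 0.809). UQCRC2 made up 26.2% to 37.1% of the summed signal of complex III with cytochrome c in SF153, against 14.5% to 15.9% in DMSO. UQCR10 made up 0.968% to 2.17% in SF153, against 3.46% to 4.38% in DMSO.

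Somatic cytochrome c, encoded by CYCS (chr7:25120091-25125361), carries electrons from complex III to complex IV and, when released to the cytosol, starts the apoptosome. Its signal was 22.4, 23.0, 15.6 and 17.1 in the SF153 libraries, against 58.5, 66.7, 57.2 and 49.95 in the DMSO libraries. All 4 SF153 values were below all 4 DMSO values (-1.54 ± 0.14 SE, limma adjusted p = 6.05e-05). HCCS, the lyase that attaches haem to cytochrome c, fell too, averaging 2.21 ± 0.828 in SF153 and 6.95 ± 2.20 in DMSO (-1.30 ± 0.25 SE, limma adjusted p = 0.00264). The apoptosome partners APAF1 and CASP9 were not called, with log2 differences of -0.070 and -0.49.

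All 11 nuclear-encoded complex IV genes fell at least 2-fold in mean signal. These subunits surround the mitochondrially encoded catalytic core and take part in its assembly, stability and regulation. COX5A (chr15:74919791-74938168), which faces the matrix, had 41.1, 23.4, 16.6 and 15.1 in the SF153 libraries, against 142, 121.97, 121.2 and 103 in the DMSO libraries. COX7C (chr5:86617904-86620962) had 34.9, 55.7, 20.2 and 19.9 in the SF153 libraries, against 170.4, 146, 120.6 and 138 in the DMSO libraries. COX8A (chr11:63974607-63976543), the ubiquitous form of subunit 8, had 38.9, 48.2, 16.1 and 14.4 in the SF153 libraries, against 143, 129, 114.04 and 103 in the DMSO libraries. In each of these 3 genes the lowest SF153 values were those of batch 2, and no SF153 library came near a DMSO library. Their log2 differences were -2.40 ± 0.27 SE, limma adjusted p = 0.000139 for COX5A, -2.22 ± 0.29 SE, limma adjusted p = 0.000335 for COX7C and -2.19 ± 0.35 SE, limma adjusted p = 0.00105 for COX8A.

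COX4I1, the ubiquitous form of subunit 4 and the most abundant nuclear complex IV mRNA in both groups, had 95.2, 86.5, 58.0 and 54.4 in the SF153 libraries, against 256, 257, 211.1 and 229 in the DMSO libraries (-1.72 ± 0.18 SE, limma adjusted p = 9.59e-05). The smallest fall of the group was that of COX7A2L, a COX7A relative that links complexes III and IV into supercomplexes. It had 21.7, 19.2, 14.7 and 10.2 in the SF153 libraries, against 33.9, 37.8, 38.8 and 37.2 in the DMSO libraries (-1.17 ± 0.19 SE, limma adjusted p = 0.0013). The other 6 genes, COX5B, COX6A1, COX6B1, COX6C, COX7A2 and COX7B, had log2 differences from -2.07 (COX7B) to -1.78 (COX6C), and in all of them SF153 and DMSO libraries did not overlap.

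Complex V is built of a catalytic F1 head in the matrix, a ring of c subunits that turns in the membrane, and a peripheral stalk (stator) that holds the head still. The stator genes had the largest median fall, with 4 of 4 lower and a median log2 difference of -2.04. ATP5PB (subunit b, chr1:111448864-111462773) had 28.7, 28.3, 14.7 and 18.8 in the SF153 libraries, against 131, 134, 90.8 and 105 in the DMSO libraries. ATP5PF (coupling factor 6) had 17.5, 25.4, 6.21 and 13.4 in the SF153 libraries, against 73.3, 79.3, 59.7 and 68.5 in the DMSO libraries. The SF153 values spread over batches, with the lowest in library 2.1 for both genes, and none reached a DMSO value; the log2 differences were -2.33 ± 0.22 SE, limma adjusted p = 6.53e-05 for ATP5PB and -2.24 ± 0.33 SE, limma adjusted p = 0.000614 for ATP5PF. ATP5PO (OSCP, the cap of the stalk) and ATP5PD (subunit d) fell with log2 differences of -1.84 and -1.71.

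All 5 F1 head genes fell, with a median of -1.24. The catalytic beta subunit ATP5F1B averaged 94.0 ± 15.5 in SF153 and 244 ± 19.4 in DMSO (SD, n = 4 each), the highest DMSO level of all members, with a log2 difference of -1.38. Its partner alpha, ATP5F1A, averaged 87.3 ± 12.1 in SF153 and 206 ± 9.48 in DMSO (-1.24), and the rotor subunits gamma (ATP5F1C) and delta (ATP5F1D) had log2 differences of -1.08 and -1.41. Epsilon (ATP5F1E), which has the lowest DMSO level of the 43 subunit genes, averaged 9.51 ± 2.89 in SF153 and 16.4 ± 0.820 in DMSO and fell least (-0.76 ± 0.18 SE, limma adjusted p = 0.00759). Its call ended with libraries averaged (limma adjusted p = 0.0656), over protein-coding nuclear genes alone (0.0883) and in batch 1 alone (log2 difference -0.42, limma adjusted p = 0.157). ATP5IF1, which blocks ATP hydrolysis by the enzyme when the membrane potential is lost, also fell, averaging 17.9 ± 4.04 in SF153 and 48.0 ± 8.53 in DMSO (-1.38 ± 0.17 SE, limma adjusted p = 0.000224).

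Subunit c is made from 3 genes whose proteins differ only in the import sequence that is removed, so 3 mRNAs feed 1 ring. The gene bodies lie at chr17:48892765-48895871, plus strand (ATP5MC1), chr12:53632726-53677408, minus strand (ATP5MC2) and chr2:175176258-175184607, minus strand (ATP5MC3). The end of each coding sequence, 225 bases or 75 codons before the stop codon (GENCODE 29, GRCh38, 5′ to 3′), encodes the same protein stretch in all 3 and is shown because it tells how separable the 3 mRNAs are. Capitals mark the 52 positions at which the 3 are not all alike.
ATP5MC1: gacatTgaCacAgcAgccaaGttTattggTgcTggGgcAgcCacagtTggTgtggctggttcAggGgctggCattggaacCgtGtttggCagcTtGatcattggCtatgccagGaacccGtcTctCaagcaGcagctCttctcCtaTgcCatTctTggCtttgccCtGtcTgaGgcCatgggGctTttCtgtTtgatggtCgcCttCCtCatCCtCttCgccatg
ATP5MC2: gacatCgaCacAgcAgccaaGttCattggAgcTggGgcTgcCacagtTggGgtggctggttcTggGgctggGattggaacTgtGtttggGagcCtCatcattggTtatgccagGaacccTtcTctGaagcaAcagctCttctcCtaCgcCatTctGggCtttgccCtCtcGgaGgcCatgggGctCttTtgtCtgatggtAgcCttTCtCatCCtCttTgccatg
ATP5MC3: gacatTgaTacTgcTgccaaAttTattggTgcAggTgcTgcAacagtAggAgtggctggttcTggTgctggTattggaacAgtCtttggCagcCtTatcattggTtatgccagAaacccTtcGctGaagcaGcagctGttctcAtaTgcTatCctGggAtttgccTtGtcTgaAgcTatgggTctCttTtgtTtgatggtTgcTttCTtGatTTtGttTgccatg
Here ATP5MC1 and ATP5MC2 differed at 25 bases, ATP5MC1 and ATP5MC3 at 42, and ATP5MC2 and ATP5MC3 at 42, so reads within the shared stretch carry differences by which they could be assigned, and the split between the 3 remains less certain than their sum.

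The c ring genes together fell to a summed signal of 106 ± 33.0 in SF153, against 365 ± 49.9 in DMSO (SD, n = 4 each), 28.97% of the DMSO level. ATP5MC2, the most abundant, had 70.9, 80.9, 33.3 and 42.9 in the SF153 libraries, against 241, 256, 179.9 and 201 in the DMSO libraries (-2.001 ± 0.26 SE, limma adjusted p = 0.000305). ATP5MC3 had 34.1, 37.7, 23.1 and 29.2 in the SF153 libraries, against 105, 108, 95.6 and 90.0 in the DMSO libraries (-1.67 ± 0.14 SE, limma adjusted p = 4.26e-05). ATP5MC1 had 25.1, 18.3, 12.8 and 14.3 in the SF153 libraries, against 55.5, 49.2, 36.6 and 40.7 in the DMSO libraries (-1.35 ± 0.20 SE, limma adjusted p = 0.000742). No SF153 library overlapped DMSO in any of the 3. Of the sum, ATP5MC2 gave 48.2% to 59.1% in SF153, against 57.6% to 61.99% in DMSO. These ranges overlapped only in part, with the lowest shares in SF153. ATP5MC1 gave 13.4% to 19.3% in SF153, against 11.7% to 13.8% in DMSO, and ATP5MC3 26.2% to 33.8% in SF153, against 26.1% to 30.6% in DMSO.

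The other membrane subunits sit beside the ring and help ATP synthases pair along the cristae. ATP5MK, a small subunit of this group, had 36.1, 28.4, 10.2 and 17.3 in the SF153 libraries, against 94.8, 124, 86.8 and 86.1 in the DMSO libraries (-2.17 ± 0.32 SE, limma adjusted p = 0.000696). SF153 and DMSO libraries were far apart. ATP5MG (subunit g), ATP5ME (subunit e), ATP5MF (subunit f) and ATP5MJ fell with log2 differences from -1.78 (ATP5MG) to -1.42 (ATP5MJ). The copy ATP5MGL was at the edge of the filter, with 1.52, 0.425, 0.852 and 1.44 in the SF153 libraries, against 0.186, 1.16, 0 and 2.46 in the DMSO libraries, and the readthrough ATP5MF-PTCD1 had 5.98, 5.86, 4.98 and 4.28 in the SF153 libraries, against 6.33, 7.41, 6.21 and 5.28 in the DMSO libraries. Both overlapped between groups and neither was called (0.22 ± 0.41 SE, limma adjusted p = 0.706 for ATP5MGL, -0.22 ± 0.15 SE, limma adjusted p = 0.267 for ATP5MF-PTCD1). Reads of each can be shared with ATP5MG or ATP5MF, so their values are uncertain.

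Within the 43 subunit genes the levels kept a wide spread under treatment. Mean signals ran from 5.17 (UQCR10) to 107 (UQCRC2) in SF153, with a median of 26.9, and from 16.4 (ATP5F1E) to 244 (ATP5F1B) in DMSO, with a median of 92.5. The coefficient of variation of these means over genes was 66.8% in SF153 and 60.2% in DMSO. UQCRC2 had the highest mean of these genes in SF153, where ATP5F1B followed at 94.0, but stood below ATP5F1B in DMSO, at 124 against 244.

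The fall was seen in each batch and, on the deposited scale, was deeper in batch 2. The median log2 difference of the members was -1.40 in batch 1 and -1.75 in batch 2, where all genes tested had -0.038 and -0.047. In batch 1 alone 41 members were called lower (all genes 14.6%), and in batch 2 alone 41 (all genes 15.8%). Differences were below 0 in both batches in 44 of 46, and 42 of 46 were more negative in batch 2, as were 54.5% of all genes. The summed complex IV signal stood at 32.3% of the DMSO sum in batch 1 and 20.5% in batch 2, and that of complex II at 52.8% and 49.7%. The SF153 libraries of batch 2 had the lowest total signal, 828381 and 835840, against 990815 to 1027119 in the other libraries. As a share of total signal, the members held 0.180% and 0.178% in SF153 batch 1, against 0.483% and 0.472% in DMSO. In batch 2 they held 0.139% and 0.139% in SF153, against 0.391% and 0.394% in DMSO. On the deposited scale the member sum was 38.2% of the DMSO sum in batch 1 and 28.9% in batch 2. Taken as shares of total signal, the batches stood closer together relative to DMSO. Beyond the rescaling given below, how far the contrast between batches rests on the unstated scaling was not tested.

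A test of the difference between batches (limma interaction term, added after the data were seen) called 2 of the 46 members, where 1.15% of all genes were called. The batch 2 minus batch 1 difference of the log2 difference was -1.13 for COX8A (limma adjusted p = 0.0289) and -0.88 for UQCRB (limma adjusted p = 0.03). At an unadjusted p below 0.05 there were 18 members, against 10.1% of all genes, and 8 of the 11 complex IV genes were among them. The SF153 libraries of batch 2 are also those with the high share of mitochondrially encoded signal. With mitochondrial and small RNA genes removed and the rest rescaled, the member medians were -1.10 in batch 1 and -1.40 in batch 2, 39 of 46 were more negative in batch 2 (all genes 46.7%), and COX8A alone was called, where 0.858% of all genes were (-1.07, limma adjusted p = 0.0419; UQCRB -0.82, 0.0537).

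**Figure D3:**
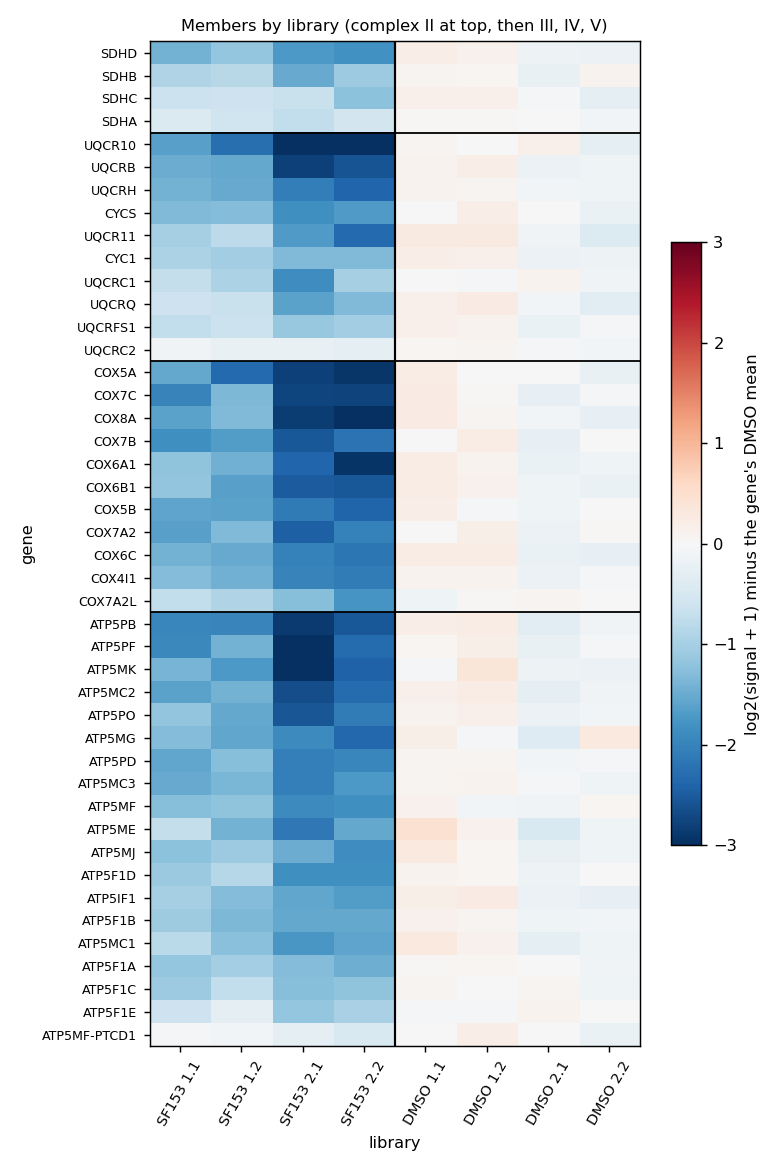
Log2(signal + 1) of each gene minus its DMSO mean (colour) in each library (columns, SF153 left, DMSO right), for the 44 genes with a DMSO mean of at least 3; rows run from complex II at the top to complex V at the bottom, and values beyond 3 are drawn at 3. The SF153 columns of batch 2 are darker than those of batch 1 in most rows, and UQCRC2 and ATP5MF-PTCD1 stay near white.

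Scaling changed the size of the fall and few calls. With mitochondrially encoded and small RNA genes left out and the rest rescaled, the median of all genes moved by 0.29, and over protein-coding nuclear genes alone by 0.30. The member medians were then -1.21 and -1.10, with 42 and 39 members lower, where 13.8% and 15.6% of all genes were called lower. Over protein-coding nuclear genes alone, where 41.6% of all genes were called higher, 1 member was, UQCRC2 (0.24, limma adjusted p = 0.0132).

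Most members are short, and short mRNAs in general were lower in SF153. Of the 46 genes, 34 have a coding length under 600 bases (longest basic transcript's coding length in GENCODE 29). These had a median log2 difference of -1.71 with 94.1% called lower, against -0.71 and 59.7% for all 1457 tested nuclear protein-coding genes of that length. At 600 to under 1200 bases the 6 members had a median of -1.12, against -0.27 for 3144 genes, and at 1200 bases or more the 6 members had -0.86, against -0.039 for 6419 genes. Across genes the log2 difference had a Spearman correlation with coding length of 0.36 over the 46 members and 0.35 over 11020 genes. Genes share libraries and are not independent, so no p is given. With the trend on transcript length and mean signal removed, the member median was -1.26 (all genes 0.015) and 42 of 46 were lower, where 19.6% of all genes were; UQCRC2 was then at 0.032.

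**Figure D4:**
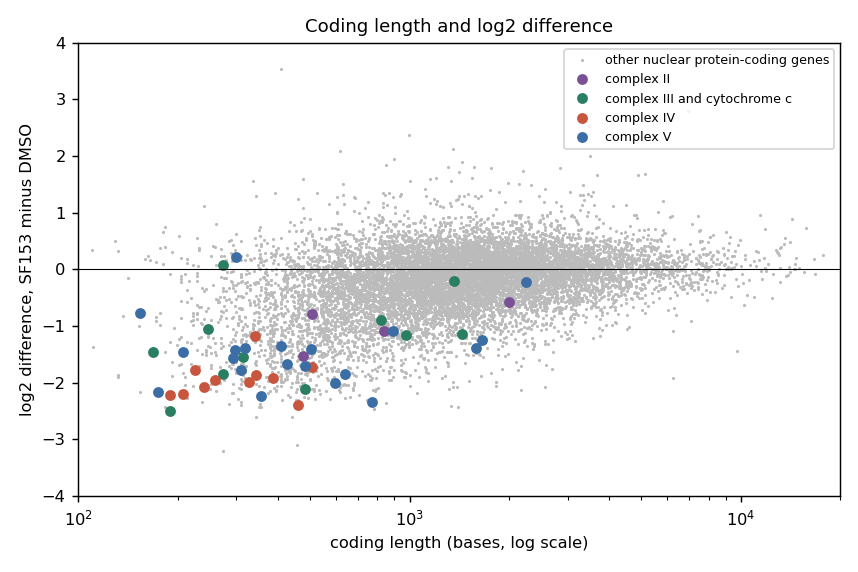
Coding length in bases (x axis, log scale) against the log2 difference, SF153 minus DMSO (y axis), for the members (coloured by complex) and 11020 nuclear protein-coding genes tested (grey), of which 11 lie outside the axes. Grey points under 600 bases reach below -1 more often than longer ones, and most members lie in the lower part of the cloud at their length.

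None of the mitochondrially encoded partners of complexes III to V was called lower. Of the 6 genes, 2 were called higher and 0 lower, where 13% of all genes were called higher and 24.3% lower. MT-CYB, the cytochrome b of complex III, had 4315, 4589, 6375 and 6541 in the SF153 libraries, against 4283, 4133, 4275 and 4392 in the DMSO libraries (0.33 ± 0.15 SE, limma adjusted p = 0.119). It was high in both SF153 libraries of batch 2 and overlapped DMSO through batch 1, and it was not called. The catalytic complex IV subunits were likewise not called, with log2 differences of 0.20 for MT-CO1, 0.36 for MT-CO2 and -0.15 for MT-CO3 (limma adjusted p = 0.384, 0.0788 and 0.524).

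The complex V partners MT-ATP6 and MT-ATP8, which overlap on one transcript so that their reads are partly shared, were called higher. MT-ATP6 had 5028, 5162, 9038 and 9454 in the SF153 libraries, against 4363, 4355, 4373 and 4519 in the DMSO libraries (0.64 ± 0.22 SE, limma adjusted p = 0.0419). MT-ATP8 averaged 4071 ± 1501 in SF153 and 2420.0 ± 209 in DMSO (0.68 ± 0.24 SE, limma adjusted p = 0.0468). Its groups overlapped, with SF153 1.1 at 2645 below DMSO 2.2 at 2719. The values of MT-ATP6 stood far higher in SF153 batch 2 than in any other library. Its log2 difference was 0.22 in batch 1 and 1.06 in batch 2, and that of MT-ATP8 0.27 and 1.09.

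The ratio of mitochondrially to nuclear-encoded signal differed in all 3 mixed complexes. It averaged 16.5 ± 6.73 in SF153 and 5.19 ± 0.623 in DMSO for complex III with cytochrome c, 188 ± 94.1 in SF153 and 40.1 ± 4.69 in DMSO for complex IV and 19.5 ± 10.7 in SF153 and 3.59 ± 0.412 in DMSO for complex V (SD, n = 4 each). For complex IV it ranged over 102 to 279.7 in SF153, against 35.6 to 45.3 in DMSO, without overlap. In batch 1, where mitochondrially encoded genes took 9.17% and 9.92% of the signal in SF153 and 9.63% and 9.61% in DMSO, the SF153 ratios for complex IV were 102 and 111, against 35.6 and 36.8 in DMSO.

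**Figure D5:**
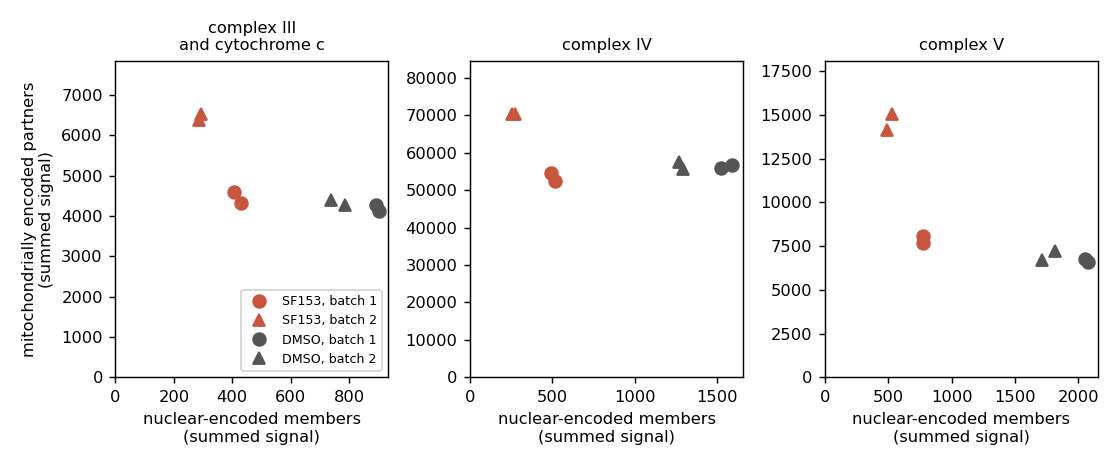
Summed signal of the nuclear-encoded members (x axis) and of the mitochondrially encoded partners (y axis) of complexes III with cytochrome c, IV and V in each library, axes from 0. SF153 libraries lie left of DMSO libraries in each panel, and the SF153 libraries of batch 2 (triangles) lie above all others.

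Assembly factors, which fold, metallate or insert subunits without staying in the enzyme, were read beside the 24.3% of all genes called lower. For complex IV 18 of 26 fell and 0 rose (median log2 difference -0.64). HIGD2A, which promotes supercomplex and complex IV assembly, averaged 23.0 ± 8.53 in SF153 and 85.7 ± 12.6 in DMSO (-1.91 ± 0.24 SE, limma adjusted p = 0.000243). COA3, which stabilises newly made MT-CO1, had a log2 difference of -1.79, the copper chaperone COX17 -1.24 and HIGD1A -1.17. The haem A synthesis enzyme COX10 and the copper factor COX11 were not called (0.059 and 0.18). The count for complex IV depended on scaling, with 11 lower and 5 higher once mitochondrially encoded and small RNA genes were left out, where 13.8% of all genes were called lower and 34.7% higher.

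Among the factors of complex II, 2 of 4 fell and 0 rose (median log2 difference -0.39), with SDHAF3, which helps mature the iron-sulfur subunit, at -1.58 and the flavinylation factor SDHAF2 at -0.49. For complex III 1 of 6 fell and 0 rose (median log2 difference -0.052); the called gene was UQCC2 (-0.90, limma adjusted p = 0.0114), needed for making cytochrome b, and BCS1L, which inserts the Rieske protein, was not called (0.10). For complex V 4 of 8 fell and 0 rose (median log2 difference -0.52). TMEM70, which supports building of the c ring, had -0.97, and the F1 chaperones ATPAF1 and ATPAF2 -0.91 and -0.63. After the same removal the lower counts were 1, 1 and 2 and the higher ones 0, 2 and 1 for complexes II, III and V, beside the same 13.8% and 34.7% of all genes.

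Of the transcription factors and coactivators of respiratory genes, 5 of 12 fell and 0 rose (median log2 difference -0.22), beside 24.3% of all genes called lower. TFAM, which packages and transcribes mitochondrial DNA, averaged 10.2 ± 3.30 in SF153 and 26.0 ± 5.26 in DMSO (-1.29 ± 0.22 SE, limma adjusted p = 0.00137). GABPB1, the beta partner of the ETS factor GABPA, had a log2 difference of -1.19, and the mitochondrial transcription factor TFB2M -1.01. YY1 and GABPA also fell (-0.67 and -0.64). NRF1 itself averaged 8.77 ± 2.18 in SF153 and 10.2 ± 2.72 in DMSO and was not called (-0.20). With mitochondrial and small RNA genes removed 5 were lower and 2 higher, beside 13.8% and 34.7% of all genes.

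Both tested carriers that supply complex V with its substrates fell, where 24.3% of all genes were called lower. SLC25A6, also listed, had duplicate entries among the deposited genes and was left out. SLC25A5, an ADP/ATP exchanger, averaged 51.1 ± 14.4 in SF153 and 188 ± 12.4 in DMSO (-1.89 ± 0.17 SE, limma adjusted p = 5.67e-05), and SLC25A3, the phosphate carrier, 147 ± 31.7 in SF153 and 417 ± 60.4 in DMSO (-1.51 ± 0.16 SE, limma adjusted p = 0.000105); they are the 2 of 4 listed carriers that were tested. Of the 7 nuclear core subunits of complex I, set beside the members, 7 fell, beside 24.3% of all genes, with a median log2 difference of -0.75. With mitochondrial and small RNA genes removed 5 of the 7 were lower and 0 higher, beside 13.8% and 34.7% of all genes. The members of complexes II to V had a median of -1.54. NDUFS8 and NDUFS7 fell furthest among the 7 (-0.94 and -0.90), followed by NDUFS1 (-0.81). The difference between the 2 sets was not tested.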

How the data were processed

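Total RNA was sequenced from 8 NKM-1 libraries, 4 with SF153 and 4 with DMSO, each group in 2 batches. Values are the authors' deposited signal per gene, which the file labels name both CPM and TPM. The deposited signal summed to 828381 to 1027119 per library, so it is not plain TPM. CASAVA 1.8.2, STAR, Salmon, edgeR and GRCh38 appear, per the submitters' processing notes, with no role given. The depth is unknown, so no counting interval is given. Of the 8 value columns, 4 were spelled unlike the label and were matched by number, letter and index pair. Such values are relative, so a rise of abundant RNA can lower the others, to a degree that depends on the unstated scaling.

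SF153 and DMSO were compared by limma (version 3.58.1, R version 4.3.3) after a log2(signal + 1) transform, with trended variance and no batch term, over the 15542 genes whose mean reached 1. A call needs a Benjamini-Hochberg adjusted p below 0.05 over all these genes. The scale understates changes of low genes. The plan had assumed TPM, and the same test was used. Positions and coding lengths are from GENCODE 29 (17235 of 17912 identifiers matched, and all 46 members). Promoters are RefSeq's. The test was tried on simulated data in which far fewer genes changed than the 37.2% called here. It recovered 64% of changes of log2 size 1 and 91% of those of 1.5. Recovery depends on how many genes change, so these rates are not those of the real data. A gene not called may still have changed.

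The members and gene lists were chosen with earlier results of these data known. Library values are given for the 3 largest and 2 smallest changes of each complex, all of complex II, CYC1, CYCS and the ATP5MC genes, and of each list up to 4 called genes with the largest change are named, with all mitochondrial partners; 1 gene named by this rule is not reported here. Genes named beyond this (COX10, COX11, BCS1L, NRF1, GABPA, APAF1, CASP9, MPO, CD33, ITGAM, CD79A, PAX5, PDGFRB) were chosen after their values were seen. Libraries are paired by the batch number in the labels. Deviations of libraries of the same batch and the other treatment correlated across genes with a mean r of 0.026 (-0.00408 to 0.0594), and genes are not replicates of each other. Other settings tried were the pseudocount, the filter, scaling, the variance model, batch, averaging, a length trend and leaving out each library; leaving out both SF153 libraries of batch 2, the interaction and batch values after removal of mitochondrial genes were added after the data were seen.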

Additional observations from a re-analysis of the deposited data

Results flagged for a closer look

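SDHC stood out within SF153 because library 2.2 had a signal of 15.6, while the other 3 SF153 libraries had 23.6 to 24.5. SDHA stood out within DMSO because library 2.2 had 65.0, while the other 3 DMSO libraries had 70.4 to 71.3. The gap to the nearest library passed Dixon's 95% limit in both, which chance does in about 1 in 20 groups. Each of the 46 members has an SF153 and a DMSO group, so several such gaps can arise by chance.

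The SF153 effect differed between the batches, by the limma interaction term, for UQCRB (batch 2 minus batch 1 -0.88 on the log2 scale, limma adjusted p = 0.03) and COX8A (-1.13, limma adjusted p = 0.0289). UQCRB had log2 differences of -1.66 in batch 1 and -2.54 in batch 2, and COX8A of -1.63 and -2.76.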

How the results depend on the processing

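Across 25 alternatives, 39 to 43 members were called lower, and 37 of the 43 called members were lower under all of them. Leaving out each library in turn gave 42 to 43 lower, 9 to 10 in complex III with cytochrome c, and medians from -1.66 to -1.45. With batch as a replicate block 43 were lower and 0 higher, and no member's call changed. Over protein-coding nuclear genes alone 1 member was higher, complex II had 2 lower and the member median was -1.10. Without mitochondrial and small RNA genes the median in batch 1 was -1.10, complex II had 2 lower in batch 2, and the interaction called 1. UQCRC2 turned above 0 without mitochondrial and small RNA genes (0.13; batch 1 0.075, batch 2 0.18), over protein-coding nuclear genes (0.24) and with the length trend removed (0.032). ATP5MF-PTCD1 did so without mitochondrial and small RNA genes (0.068; 0.085 in batch 1, 0.052 in batch 2) and over protein-coding nuclear genes (0.17). UQCRHL turned below 0 after quantile normalization (-0.019) and without DMSO 2.2 (-0.0063), and ATP5MGL without DMSO 2.1 (-0.043). Beyond the construction of each alternative, the causes were not tested. Unknown depth limits what can be said of genes near the filter.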
